A study of Mus musculus with 12 samples.

Results

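The mitotic spindle and division genes are 40 genes whose products carry a cell through mitosis, taken by name from the 32285 genes of the deposited matrices. Their UMI counts (unique RNA molecules counted per gene) were read in tumour T cells, across 9 deposited clusters and 3 cell cycle phases, and between mice with and without an antibody to ACBP. The study grew MCA205 fibrosarcoma cells, a mouse tumour line, under the skin of C57Bl/6 mice, 300000 cells per mouse. All mice received oxaliplatin, a platinum drug that damages DNA, at 10 mg/kg on day 8 and then, 8 days after that, anti-PD-1 antibody (200 µg). The 3 treated mice were given an antibody that neutralises ACBP (acyl-CoA binding protein, also named DBI), and 3 control mice the IgG2a isotype antibody, both at 2.5 mg/kg on alternate days, starting 2 days ahead of oxaliplatin and stopping the day before anti-PD-1. Tumours were taken 2 days after anti-PD-1. CD4 and CD8 T cells were sorted, mixed at equal numbers and run as 10000 cells per library with 5' single-cell chemistry. There was thus no group without chemotherapy or anti-PD-1, and every value is a single time point.

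Entry into mitosis is driven by the kinase Cdk1 bound to a cyclin. Polo-like and Aurora kinases then mature the spindle poles, kinetochore proteins tie chromosomes to microtubules, kinesin motors move and slide those microtubules, and a checkpoint holds the anaphase-promoting complex back until every chromosome is attached. The RNAs of these genes rise together as a cell approaches mitosis, which is why genes such as Mki67 serve as markers of dividing lymphocytes. After T cells meet antigen in a tumour, both CD8 and regulatory T cells can divide there, and PD-1 is among the receptors that restrain this.

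The authors' table kept 30749 cells over the 6 libraries (2923 to 7238 in each), with 4516 to 7682 UMIs in the median cell. By cluster and by their own lineage UMIs, 16945 cells were classed as CD8 T cells, 8902 as conventional CD4 T cells and 4706 as regulatory T cells, and 196 had no class. Foxp3, the factor that defines regulatory T cells, had a UMI in 81.5% of the regulatory class and in 1.60% and 1.82% of the other two. The conventional CD4 class was the least pure: 12.5% of its cells had more Cd8 than Cd4 UMIs, from 4.69% to 20.7% by library. In 536 of 30207 distinct barcodes the same sequence occurred in more than 1 library. Cells that a deposited column named DF1 marks FALSE, a mark that none of the sources used here explains, made up 7.75% to 31.2% of cluster 4 in the isotype libraries. In the anti-ACBP libraries they made up 81.0%, 26.9% and 81.7%. Among regulatory G2M cells the shares were 34.0%, 41.4% and 11.7% in isotype against 25.4%, 12.5% and 14.3% in anti-ACBP libraries, not higher under anti-ACBP. The median UMI count was 9970 for cells marked FALSE and 5948 for those marked TRUE. Whether the former are doublets was not tested. Since cluster 4 held 63.4% of member UMIs, the comparisons between groups are also given without these cells. Levels by phase and by cluster include them.

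**Figure D1:**
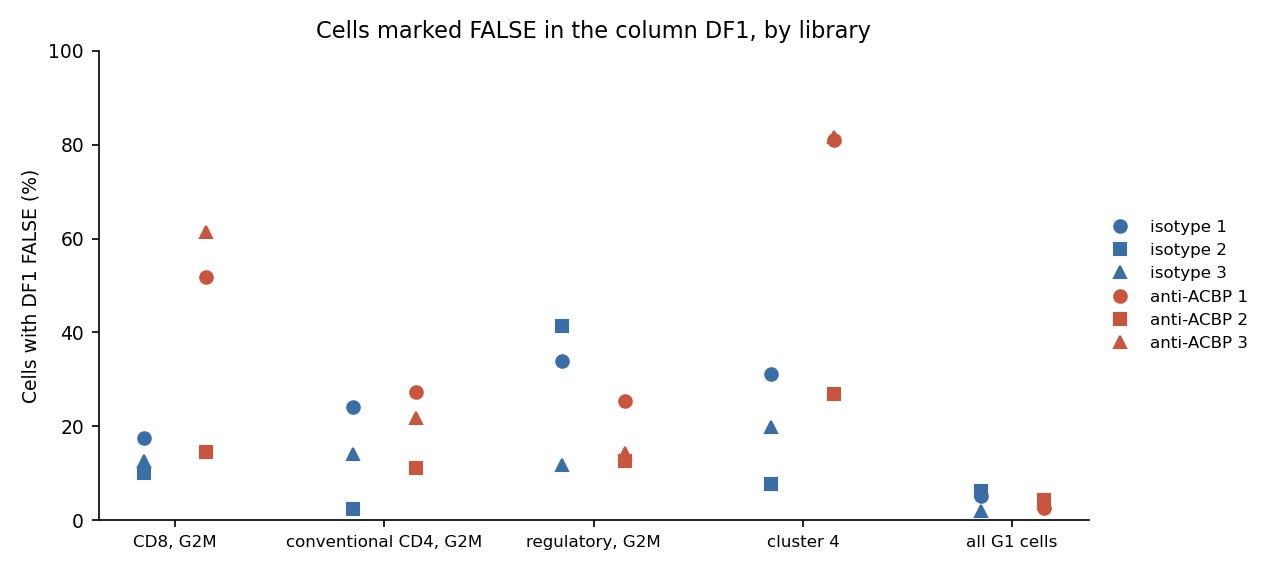
Share of cells with DF1 FALSE (percent, linear axis) in each library among G2M cells of each class, cluster 4 cells and all G1 cells. Anti-ACBP libraries 1 and 3 stand at 51.8% and 61.5% of CD8 G2M cells, while the other 4 libraries lie between 10.0% and 17.4%.

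Every member was highest in cells that the authors' phase column calls G2M, next in S and lowest in G1, as means over the 6 mice. Summed over the 40 genes, the level was 243 ± 39.1 CPM (UMIs scaled to a common total per mouse; SD, n = 6 mice) in G1, 1899 ± 231 in S and 6857 ± 309 in G2M cells. Each member was higher in G2M than in S cells in 6 of 6 mice. These orders describe the phase call and do not test it, since such calls are scored from genes of this kind and none of the sources used here names the scoring genes. At 2000 UMIs per cell the median member was detected in 0.307% of G1, 3.01% of S and 12.7% of G2M cells. No share from a cell type without these RNAs is at hand to set beside these. In barcodes outside the authors' table of cells the members summed to 3041, 2940 and 3035 CPM in isotype libraries 1, 2 and 3. In anti-ACBP libraries 1, 2 and 3 they summed to 2349, 1834 and 2668.5 CPM there, below all isotype libraries. In the cells used the sums were 1963, 1805 and 2383 against 1546, 1351 and 1226 CPM, and in G1 cells 203 to 299 CPM. Fibroblast markers stood at 607 to 1734 CPM in the barcodes outside the table and at 0.229 to 2.77 CPM in the cells used. The part of free RNA in the G1 levels and in the comparisons between groups was not tested.

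The members differed in how sharply they marked G2M. Ube2c, the ubiquitin-conjugating enzyme that feeds the anaphase-promoting complex, stood at 35.5 CPM in S and 552 CPM in G2M cells, a ratio of 15.6 that ran from 13.2 to 25.5 between mice. Cenpf, a kinetochore protein, had a G2M to S ratio of 11.2, and Cdc20, the activator of the anaphase-promoting complex, one of 8.55. At the other end were Stmn1, a microtubule-destabilising protein, with a ratio of 1.92 (448 CPM in S and 858 CPM in G2M), and Stil, a centriole duplication factor, with 1.94. Cdk1 (2.67), Spc25 of the NDC80 kinetochore complex (2.65) and the checkpoint kinase Ttk (2.63) also lay near this end. The S cell level relative to the G2M level thus differed widely within the list.

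Cenpa, the histone H3 variant that marks centromeres, was the member whose level differed least between G2M and G1 cells. Its level was 111 CPM in G1, 133 in S and 505 in G2M cells, so the G2M to G1 ratio was 4.57, against 14.6 for the next lowest, Kif23, and 396 for Kif2c, a kinesin that takes microtubules apart. G1 cells held 37.6% ± 7.17 (SD, n = 6) of all Cenpa UMIs, compared with 9.03% ± 2.38 for the 40 genes summed.

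**Figure D2:**
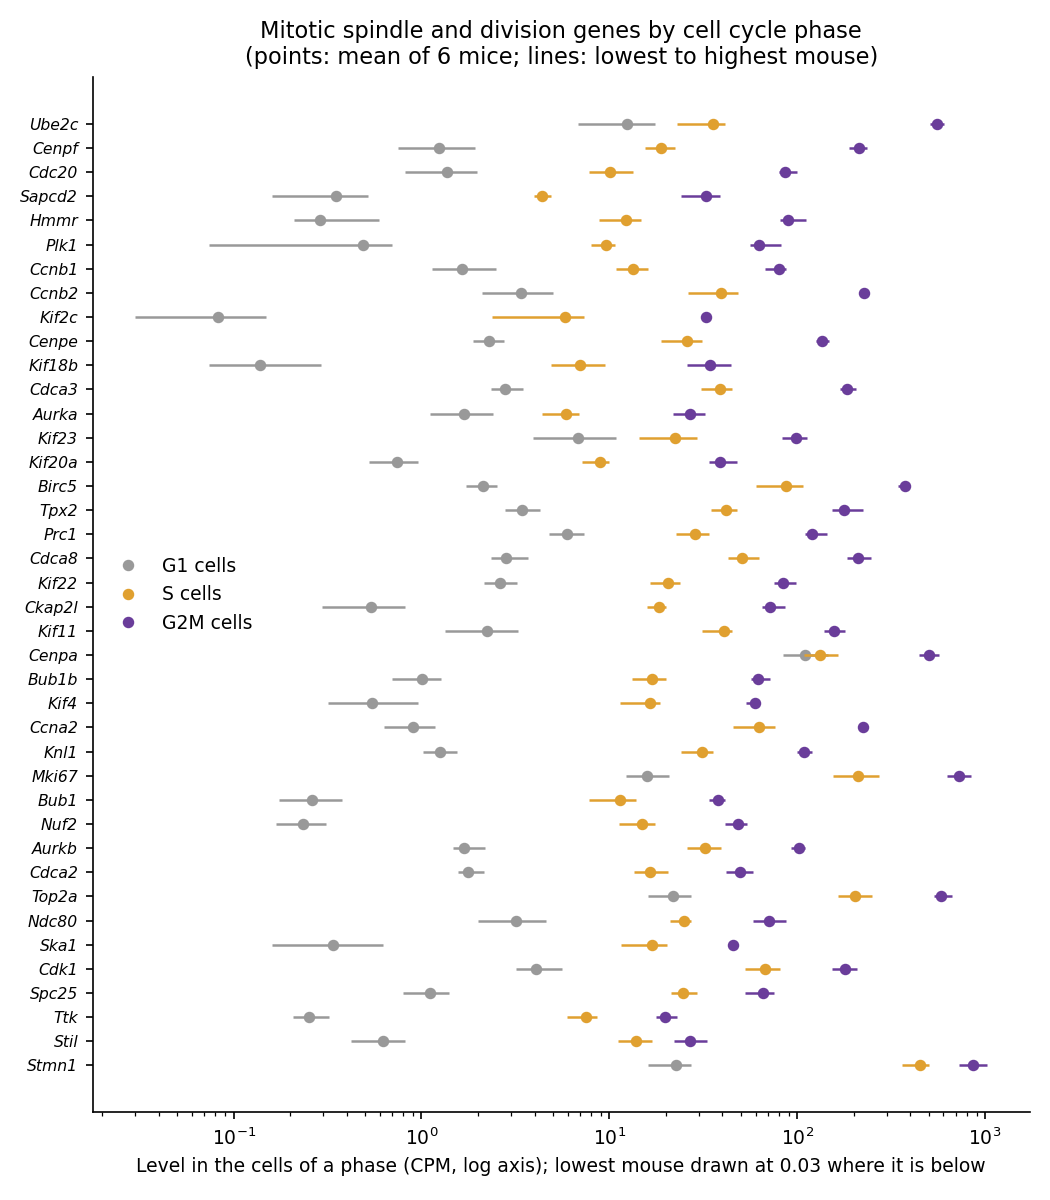
Level of each member in G1, S and G2M cells (CPM, log axis; points are means of 6 mice, lines run from the lowest to the highest mouse, with a lowest value under 0.03 drawn at 0.03), ordered by the G2M to S ratio. Ube2c at the top has the widest gap between S and G2M, Stmn1 at the bottom the narrowest, and Cenpa keeps 111 CPM in G1 cells.

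Across the clusters, all 40 members had their highest mean in cluster 4, where the summed level was 7120 ± 530 CPM (SD, n = 6). Cluster 2, the regulatory T cells, followed with 1753 ± 763 CPM, and cluster 1, the main conventional CD4 cluster, was lowest with 297 ± 39.8 CPM. Cluster 4 contained no G1 cell: 65.9% of its 2399 cells were G2M and 34.1% S. It held 63.4% of all member UMIs (mean of 6 mice), cluster 2 held 16.2%, and no other cluster more than 6.74%. Ccna2, Hmmr, Cenpf and Kif2c had 74.4% to 75.4% of their UMIs in cluster 4, and Cenpa had 35.3% there. By class, cluster 4 was 81.5% CD8 and 1.13% regulatory, with conventional CD4 T cells making up nearly all of the rest. Regulatory T cells in S or G2M were thus mostly outside cluster 4. The clusters were formed from genes that include these, and their order is therefore a description.

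In regulatory T cells 14 of the 40 members fell with anti-ACBP and none rose (edgeR quasi-likelihood F test, Benjamini-Hochberg adjusted over 10421 genes). All 40 log2 fold changes were negative, as were 49.8% of those of all genes, and ran from -1.75 to -0.11 with a median of -1.07, where the median over all genes tested was 0.00. Of all genes tested, 1.22% were called lower. An unadjusted p below 0.05 with a negative change was found for 35 members and 9.78% of all genes. The anti-ACBP mice all lay below the isotype mice in 28 members and 12.0% of all genes. Several members had been named by earlier results of these data. These counts, here and in the other classes, are therefore no independent test against all genes. Fewer dividing cells and less of these RNAs in each dividing cell cannot be told apart in such sums. Isotype mouse 2 lay below the other isotype mice: its summed level was 1562 CPM, against 2889 and 2667 in isotype mice 1 and 3, and against 1472, 1198 and 1046 in anti-ACBP mice 1, 2 and 3. The count rests on single mice: it was 38 without isotype mouse 2, 4 without anti-ACBP mouse 1, 2 without isotype mouse 1 and 0 without isotype mouse 3, anti-ACBP mouse 2 or anti-ACBP mouse 3. The change of each of the 14 was negative in each of these fits. The share of all genes called in these fits is not given here, nor for the other alternative fits below. With DF1 FALSE cells left out, 12 members were called, 10 of them among the 14, and the median was -1.55. With lineage set by each cell's own UMIs, 7 of the 14 were still called.

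Of the 4 genes of the cyclin and Cdk1 engine none passed. Cdk1, the kinase itself, measured 87.1, 48.9 and 82.4 CPM in isotype mice and 40.1, 33.3 and 22.5 CPM in anti-ACBP mice, without overlap, and its log2 fold change was -1.16 ± 0.30 (SE; edgeR, adjusted p = 0.0993). Ccnb1, cyclin B1, measured 43.5, 20.2 and 37.6 against 15.8, 13.8 and 8.98 CPM, a log2 fold change of -1.37 ± 0.33 (edgeR adjusted p = 0.0757). Plk1, the polo-like kinase that starts spindle assembly, fell from 26.6, 15.1 and 27.8 CPM to 12.9, 9.77 and 7.76 CPM, a log2 fold change of -1.16 ± 0.27 (edgeR adjusted p = 0.0498). Aurka, the Aurora kinase of the spindle poles, overlapped between groups and had a log2 fold change of -0.69 ± 0.37.

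Of 5 checkpoint and anaphase-promoting complex partners, Bub1b and Ttk fell. Bub1b, the checkpoint protein BubR1, measured 25.2, 17.3 and 21.4 CPM in isotype against 12.1, 9.77 and 9.39 CPM in anti-ACBP mice, a log2 fold change of -1.03 ± 0.19 (edgeR adjusted p = 0.0234). Ttk, the kinase Mps1 that recruits checkpoint proteins to kinetochores, measured 8.61, 7.11 and 7.80 against 4.10, 4.66 and 3.27 CPM (adjusted p = 0.0498). Ube2c and Cdc20 had larger mean changes, -1.34 each, and did not pass. For Ube2c isotype mouse 2 had 80.2 CPM, against 205 and 165 CPM in the other isotype mice and 76.4, 57.1 and 42.9 CPM in anti-ACBP mice.

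The chromosomal passenger complex, which corrects faulty chromosome attachments and later guides cytokinesis, had 2 of 3 members lower. Cdca8, its borealin subunit, fell from 86.5, 50.5 and 76.0 CPM to 36.7, 26.4 and 33.9 CPM, a log2 fold change of -1.16 ± 0.23 (edgeR adjusted p = 0.0425). Aurkb, its kinase, fell from 53.1, 29.9 and 43.7 to 24.8, 22.0 and 19.6 CPM, a log2 fold change of -0.94 ± 0.21 (adjusted p = 0.0498). Birc5, survivin, measured 116 ± 39.4 against 57.7 ± 14.6 CPM (SD, n = 3), its groups overlapped and it did not pass.

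Spc25 and Ska1 fell among 8 centromere and kinetochore genes. Spc25 was 18.7 ± 4.27 CPM in isotype against 9.46 ± 0.390 CPM in anti-ACBP mice (SD, n = 3), a log2 fold change of -0.99 ± 0.20 (edgeR adjusted p = 0.0303). Ska1, which helps kinetochores hold on to shortening microtubules, went from 18.0 ± 4.43 to 7.86 ± 2.39 CPM (adjusted p = 0.0407). Cenpa had the smallest change of the role, -0.48 ± 0.12 on the log2 scale, with 270, 212 and 263 CPM against 199, 181 and 156 CPM.

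Kif4, Kif18b and Kif20a fell among 7 kinesin motors. Kif4, a chromosome-bound motor that shapes chromosomes and the central spindle, measured 22.4, 11.7 and 20.7 CPM in isotype mice and 7.64, 7.77 and 7.35 CPM in anti-ACBP mice, a log2 fold change of -1.29 ± 0.25 (edgeR adjusted p = 0.0285). Kif18b, which trims astral microtubules, fell from 10.4 ± 3.18 to 3.72 ± 1.46 CPM, a log2 fold change of -1.43 ± 0.33 (adjusted p = 0.0425), and Kif20a, a cytokinesis motor, from 13.0 ± 3.48 to 6.30 ± 1.07 CPM (adjusted p = 0.048). Kif23, the motor subunit of centralspindlin at the midzone, had a different pattern: 41.5, 19.1 and 41.2 CPM against 38.2, 30.2 and 26.1 CPM, overlapping, with the smallest change of all 40 members, -0.11 ± 0.32.

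Sapcd2, Stil and Prc1 fell among 7 spindle, centrosome and midzone genes. Sapcd2, a cortical protein that affects spindle orientation, had the largest change of the 40, from 11.5, 6.74 and 11.4 CPM to 3.35, 2.66 and 2.86 CPM, a log2 fold change of -1.75 ± 0.29 (edgeR adjusted p = 0.0157). Stil fell from 12.8, 8.75 and 15.6 to 4.84, 4.44 and 4.08 CPM, a log2 fold change of -1.46 ± 0.26 (adjusted p = 0.0193). Prc1, which bundles midzone microtubules, fell from 46.4 ± 11.8 to 25.3 ± 2.25 CPM (SD, n = 3; adjusted p = 0.0425). Hmmr, a spindle-pole protein, had a change of -1.41 ± 0.31 and lay just outside the threshold, at an edgeR adjusted p of 0.0504.

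Among the other 4 genes Cdca2 fell, a protein that targets a phosphatase to chromosomes, from 18.0 ± 4.77 to 7.99 ± 1.56 CPM (SD, n = 3), with a change of -1.23 ± 0.23 (edgeR adjusted p = 0.0255). Mki67, which coats mitotic chromosomes, measured 366, 197 and 374 CPM against 172, 139 and 126 CPM and did not pass, with -1.11 ± 0.29 (adjusted p = 0.109). Top2a, the topoisomerase that untangles sister chromatids, measured 281, 143 and 252 against 131, 108 and 92.7 CPM, with -1.03 ± 0.29 (adjusted p = 0.128). The anti-ACBP mice were below all isotype mice for both genes. Beside these values, Cd8a plus Cd8b1 in the regulatory class was 25.8 to 52.0 CPM in isotype against 67.7 to 115 CPM in anti-ACBP mice, and its part in the result was not tested. The 14 genes that passed are mostly of low abundance: 11 of them averaged below 25 CPM in isotype mice.

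**Figure D3:**
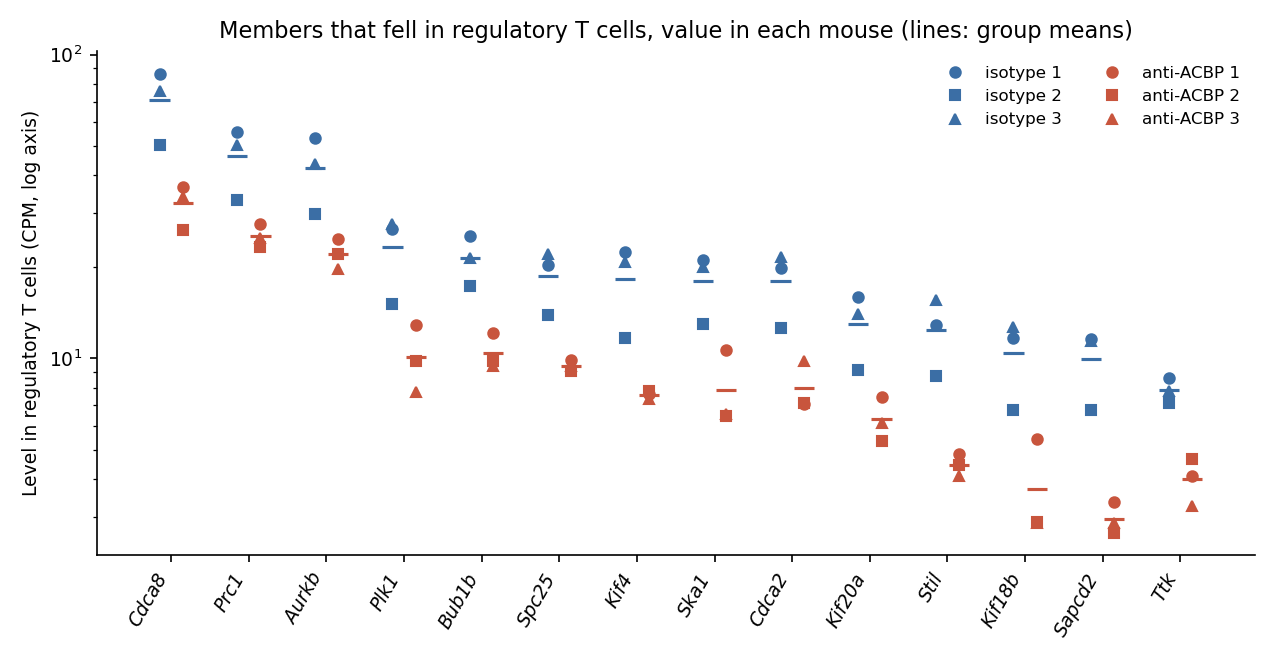
Level in regulatory T cells (CPM, log axis) of the 14 members that fell, with every mouse drawn as a point and group means as lines. For each gene the 3 anti-ACBP mice lie below the 3 isotype mice, and isotype mouse 2 (square) is the lowest isotype value.

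Many promoters of G2M genes carry a cell cycle homology region (CHR, core TTTGAA), the element that the DREAM and MuvB complexes bind, with CCAAT boxes for the factor NF-Y upstream of it. The RefSeq promoter table for GRCm38.p6 held 33 of the 40 members, and not Ccna2, Aurkb, Ska1, Kif20a, Tpx2, Stmn1 or Cdca2. In the window from 250 bases before to 50 after the first listed start, TTTGAA on either strand occurred in 26 of 33 members and in 18.1% of all 27025 promoters. The variant core TTTAAA occurred in 10 of 33 against 13.2%, and CCAAT in 27 of 33 against 37.9%. Both TTTGAA and CCAAT were in 23 of 33 members, against 7.12% of all promoters. A match is a description of letters and not a binding site.

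The position of TTTGAA was narrow. Within 50 bases on either side of the start, a window chosen after the sites were seen, 24 of 33 members had it, against 4.92% of all promoters. For comparison, 21 of 48 other mitotic genes had it there, 3 of 14 regulators of mitotic genes and 1 of 25 S phase genes. Of cohesin genes 1 of 7 had it, and of subunits of the anaphase-promoting complex 0 of 14. Without the bases after the start the count of members fell to 10 of 33, since in most of them the motif lies at or just past the annotated start. CCAAT, in the window from 250 bases before to 50 after, was in 29 of 48 other mitotic genes and 15 of 25 S phase genes. It was in 8 of 14 regulators, 4 of 7 cohesin genes and 5 of 14 subunits of the anaphase-promoting complex.

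The stretches below run from 90 bases before to 30 from the start of the members that fell in regulatory T cells and have TTTGAA within that stretch. Sapcd2, which had the largest change, is shown beside them because none of the 3 motifs is in its 300-base window. Sequences are from RefSeq (GRCm38.p6), 5′ to 3′ in the direction of the gene, and capitals mark TTTGAA and CCAAT on either strand (TTCAAA and ATTGG on the other). In Cdca8 the last 2 motifs overlap. The genes lie at chr9:83834599-83834718 (Ttk, + strand), chr4:124936888-124937007 (Cdca8, - strand), chr2:69206184-69206303 (Spc25, - strand), chrX:100625975-100626094 (Kif4, + strand), chr11:102925095-102925214 (Kif18b, - strand), chr7:80294361-80294480 (Prc1, + strand) and chr2:25371945-25372064 (Sapcd2, + strand).
Ttk: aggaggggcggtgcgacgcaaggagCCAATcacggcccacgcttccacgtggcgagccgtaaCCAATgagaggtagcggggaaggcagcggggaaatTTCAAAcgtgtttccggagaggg
Cdca8: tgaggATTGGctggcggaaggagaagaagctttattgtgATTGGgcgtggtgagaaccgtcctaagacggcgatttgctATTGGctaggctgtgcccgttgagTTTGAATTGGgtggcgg
Spc25: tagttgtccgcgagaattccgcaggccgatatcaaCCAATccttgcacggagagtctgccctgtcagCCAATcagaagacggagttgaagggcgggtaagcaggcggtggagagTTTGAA
Kif4: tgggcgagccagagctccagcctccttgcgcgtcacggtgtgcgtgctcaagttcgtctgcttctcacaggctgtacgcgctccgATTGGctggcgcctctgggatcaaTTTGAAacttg
Kif18b: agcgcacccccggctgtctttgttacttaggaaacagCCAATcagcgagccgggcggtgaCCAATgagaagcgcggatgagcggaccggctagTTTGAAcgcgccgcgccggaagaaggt
Prc1: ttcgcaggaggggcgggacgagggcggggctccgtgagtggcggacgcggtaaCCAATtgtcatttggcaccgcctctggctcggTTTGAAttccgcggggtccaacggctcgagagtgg
Sapcd2: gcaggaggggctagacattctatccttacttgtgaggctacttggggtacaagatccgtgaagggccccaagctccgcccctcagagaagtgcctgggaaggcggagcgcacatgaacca
Counted from 0 at the start base, the first base of TTTGAA was at 7 in Ttk, 13 in Cdca8, 24 in Spc25, 19 in Kif4, 3 in Kif18b and -5 in Prc1. Each of these 6 stretches also holds 1 to 4 CCAAT boxes. The same layout is found in members that did not pass, such as Cdk1, Ccnb2, Cdc20 and Hmmr, so the layout is also found outside the 14.

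In CD8 T cells all 40 members had a negative change, as did 50.4% of all genes, and Top2a alone passed. Top2a measured 179, 228 and 234 CPM in isotype mice against 150, 142 and 128 CPM under anti-ACBP, without overlap. Its log2 fold change was -0.64 ± 0.11 (SE; edgeR, adjusted p = 0.0413), and 0.443% of 11737 genes were called lower. The median change of the 40 was -0.51, where all genes had 0.00. Of the members, 32 had an unadjusted p below 0.05 with a negative change (8.34% of all genes) and 25 did not overlap between groups (8.66%). Mki67 measured 199, 248 and 272 against 175, 131 and 135 CPM, with -0.73 ± 0.15 (adjusted p = 0.0715). Cdk1 had -0.63 ± 0.18, Plk1 -0.54 ± 0.21, Ccnb1 -0.44 ± 0.17 and Aurkb -0.42 ± 0.11, at adjusted p from 0.117 to 0.243. Aurka (-0.04 ± 0.19), Ndc80 (-0.10 ± 0.12) and Kif23 (-0.12 ± 0.14) had the changes nearest to 0, and Stmn1 and Kif18b followed at -0.25 and -0.24.

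The number called in CD8 T cells moved with the mouse left out and with the cells used. Isotype mouse 1 had the lowest summed level of its group (1881 CPM, against 2282 and 2618), and without it 30 members were called lower. Without any other single mouse the count was 1 or 0, and DESeq2 called 17. Without cells with DF1 FALSE none was called, yet the median change was -1.53: the summed level was then 580, 1481 and 477 CPM in anti-ACBP mice 1, 2 and 3, against 1658, 2221 and 2461 CPM in isotype mice. With all cells the anti-ACBP mice had stood close together, at 1704, 1594 and 1513 CPM.

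In conventional CD4 T cells no member passed with edgeR, 21 had an unadjusted p below 0.05 with a negative change, against 6.63% of all genes, and DESeq2 called 7. Of 10937 genes tested, 0.0823% were called lower. Without cells with DF1 FALSE 1 member was called and the median went from -0.62 to -1.35. The median change was -0.62, 38 of 40 changes were negative, against 51.1% of those of all genes, and in 20 members the groups did not overlap, against 10.8% of all genes. Plk1 measured 7.40, 12.3 and 6.43 CPM in isotype against 5.76, 3.96 and 2.57 CPM in anti-ACBP mice, with -1.08 ± 0.34 (edgeR adjusted p = 0.186). Kif20a had 6.04, 7.55 and 4.52 against 3.38, 2.54 and 2.68 CPM (adjusted p = 0.0969), and Kif22, a chromosome-arm motor, had the lowest adjusted p, 0.0764, with 15.3 ± 3.36 against 8.30 ± 1.17 CPM. The other genes named throughout were Ccnb1 (-0.80 ± 0.24), Mki67 (-0.69 ± 0.28), Aurkb (-0.65 ± 0.23), Cdk1 (-0.60 ± 0.22) and Top2a (-0.52 ± 0.21). Kif23 (0.03 ± 0.25) and Ndc80 (0.00 ± 0.22) were again the members nearest to 0. In this class Cd8a plus Cd8b1 ran from 71.8 to 401 CPM in isotype against from 274 to 443 CPM in anti-ACBP mice, and the part of CD8 cells in the result was not tested.

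A difference of the change between classes was tested by an interaction term, with each mouse as its own block, and no member passed in any of the 3 pairs (edgeR; DESeq2 was not run on these). For regulatory minus CD8 T cells the median difference in log2 fold change was -0.55, 38 of 40 were negative (48.7% of all genes), and 8 had an unadjusted p below 0.05, all lower (3.46% of all genes; 0.0739% were called lower). The differences were -0.94 ± 0.48 for Ccnb1, -0.68 ± 0.48 for Plk1, -0.55 ± 0.35 for Cdk1, -0.52 ± 0.24 for Aurkb, -0.36 ± 0.37 for Top2a and -0.33 ± 0.33 for Mki67. Without cells with DF1 FALSE this median was 0.01, and without isotype mouse 2 it was -0.90 with 11 members called. For regulatory minus conventional CD4 T cells the median was -0.49 (7 lower at unadjusted p below 0.05, against 5.71% of all genes; 0.101% called lower), and 14 members were called without isotype mouse 2. Here Ccnb1 differed by -0.59 ± 0.31, Cdk1 by -0.56 ± 0.21, Top2a by -0.46 ± 0.39, Mki67 by -0.34 ± 0.43, Aurkb by -0.30 ± 0.29 and Plk1 by -0.12 ± 0.55. For CD8 minus conventional CD4 T cells the median was 0.13, with 0 members lower and 4 higher at unadjusted p below 0.05, against 3.43% and 3.91% of all genes, and 0.0084% of genes were called lower. Plk1 differed by 0.59 ± 0.26, Ccnb1 by 0.45 ± 0.23, Aurkb by 0.30 ± 0.24, Cdk1 by 0.06 ± 0.30, Mki67 by 0.02 ± 0.29 and Top2a by -0.07 ± 0.20. The medians of the latter 2 pairs were -0.22 and -0.30 with DF1 FALSE cells left out. The larger median in regulatory T cells is thus not shown to differ from that in the other classes.

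G2M cells were a smaller share of the class in anti-ACBP mice. In regulatory T cells they made up 19.0%, 11.3% and 18.1% of cells in isotype against 9.92%, 6.69% and 6.29% in anti-ACBP mice. In CD8 T cells the shares were 13.2%, 15.1% and 17.9% against 10.5%, 8.20% and 8.40%. Neither pair of groups overlapped, and in conventional CD4 T cells they did (8.83% ± 1.44 against 6.91% ± 1.93; SD, n = 3). With 3 mice against 3 an exact two-sided permutation test cannot give a p below 0.1, so these shares are given as values. Among cells with DF1 TRUE, the shares were 15.4%, 9.48% and 17.2% against 8.08%, 6.59% and 5.73% in regulatory T cells. In CD8 T cells they were then 11.6%, 14.2% and 16.4% against 5.67%, 7.38% and 3.67%, and the ratio of the group means went from 0.586 to 0.396. The conventional CD4 shares, 8.56%, 7.44% and 7.68% against 6.97%, 5.60% and 4.58%, no longer overlapped.

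Within G2M cells no member passed in any class with edgeR, and DESeq2 called 0 in each. In CD8 G2M cells the median change was -0.02, with 23 negative (50.3% of all genes) and 17 positive. At unadjusted p below 0.05, 1 was lower and 3 higher, against 6.5% and 5.7% of all genes, and 0.705% of 9787 genes were called lower. The summed level was 6791, 7861 and 7196 CPM in isotype against 7021, 7427 and 7246 CPM in anti-ACBP mice. Mki67 had the lowest adjusted p of the 40, with 755, 886 and 767 CPM in isotype against 712, 650 and 694 CPM in anti-ACBP mice, -0.27 ± 0.08 (adjusted p = 0.153), and Top2a had -0.17 ± 0.08. Cdk1 had -0.16 ± 0.11, Aurkb 0.09 ± 0.09, Ccnb1 0.06 ± 0.12 and Plk1 0.05 ± 0.20. Aurka, Kif18b and Ndc80 lay highest, between 0.31 and 0.39 on the log2 scale. These values too depend on the DF1 column: without cells marked FALSE the median was -0.64 and the summed level in anti-ACBP mice was 3389, 7786 and 3320 CPM.

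In regulatory G2M cells the median change was -0.24 with 33 negative (49.8% of all genes). At unadjusted p below 0.05, 7 were lower and 1 higher, against 4.0% and 6.42% of all genes, and 0.178% of 7309 genes were called lower. From 21 to 71 cells per anti-ACBP mouse stand behind these values, against 99 to 265 per isotype mouse. Cdk1 came nearest to passing, with 195, 168 and 220 CPM in isotype against 138, 129 and 131 CPM in anti-ACBP mice, -0.57 ± 0.14 (edgeR adjusted p = 0.0778). Sapcd2 (-0.70 ± 0.27) and Stil (-0.78 ± 0.39) had the lowest values, and Ccnb1 had -0.53 ± 0.18. Plk1 (-0.28 ± 0.18), Mki67 (-0.17 ± 0.16), Aurkb (-0.15 ± 0.17) and Top2a (-0.14 ± 0.14) were nearer to 0. The median was -0.42 with DF1 FALSE cells left out. Kif23 lay highest, 82.4 ± 15.3 against 119 ± 22.0 CPM, with 0.46 ± 0.18.

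In conventional CD4 G2M cells the median was -0.33 with 34 negative (50.6% of all genes). At unadjusted p below 0.05, 14 were lower and 0 higher, where 4.39% of all genes were lower, and 0.245% of 7332 genes were called lower. Kif20a measured 29.4, 52.3 and 31.0 CPM in isotype against 18.8, 11.4 and 22.9 CPM in anti-ACBP mice, -1.02 ± 0.30 (edgeR adjusted p = 0.128). Plk1 had -0.81 ± 0.36, Ccnb1 -0.60 ± 0.21, Mki67 -0.38 ± 0.20, Cdk1 -0.34 ± 0.15, Top2a -0.22 ± 0.17 and Aurkb -0.21 ± 0.20. Isotype mouse 2 had the highest summed level here, 7664 CPM, while the other 5 mice lay between 4727 and 5735 CPM, and without it the median was -0.03. With DF1 FALSE cells left out it was -0.91.

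**Figure D4:**
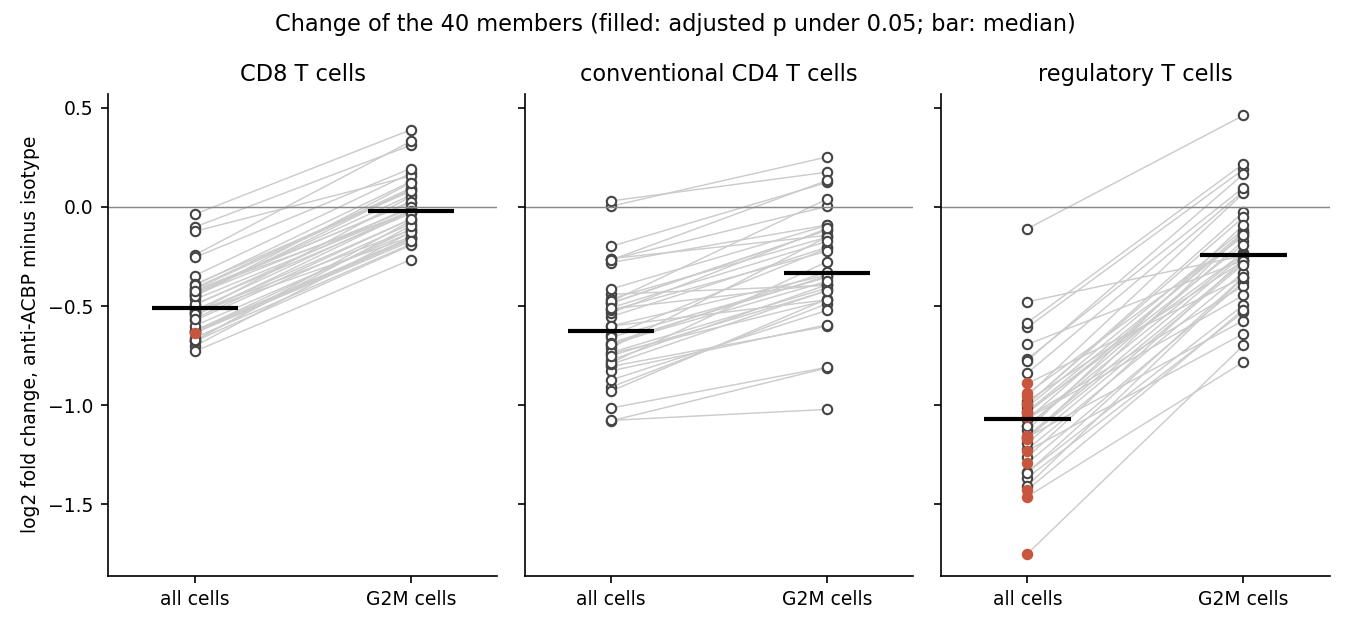
Log2 fold change of each of the 40 members in all cells of a class (left) and in its G2M cells (right), with lines joining the same gene, bars at the medians and filled points for adjusted p below 0.05. Medians go from -0.51 to -0.02 in CD8, from -0.62 to -0.33 in conventional CD4 and from -1.07 to -0.24 in regulatory T cells.

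Giving each mouse the same mix of G1, S and G2M cells gives the level with the share of phases held equal, as a description. In CD8 T cells the ratio of anti-ACBP to isotype for the summed members was 0.709 as measured and 0.997 at a common phase mix (1948 ± 59.1 against 1954 ± 92.9 CPM; SD, n = 3). In regulatory T cells it was 0.522 and 0.833, and in conventional CD4 T cells 0.679 and 0.786. At the common mix the groups overlapped in all 3 classes, and 15, 34 and 35 of 40 members had a lower mean than in isotype mice in CD8, regulatory and conventional CD4 T cells. Without cells with DF1 FALSE the ratios at a common mix were 0.632, 0.675 and 0.573, and the near equality in CD8 T cells was thus not seen without these cells. The phases themselves are read from genes of this kind, and a cell with fewer of these RNAs is less likely to be called G2M.

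**Figure D5:**
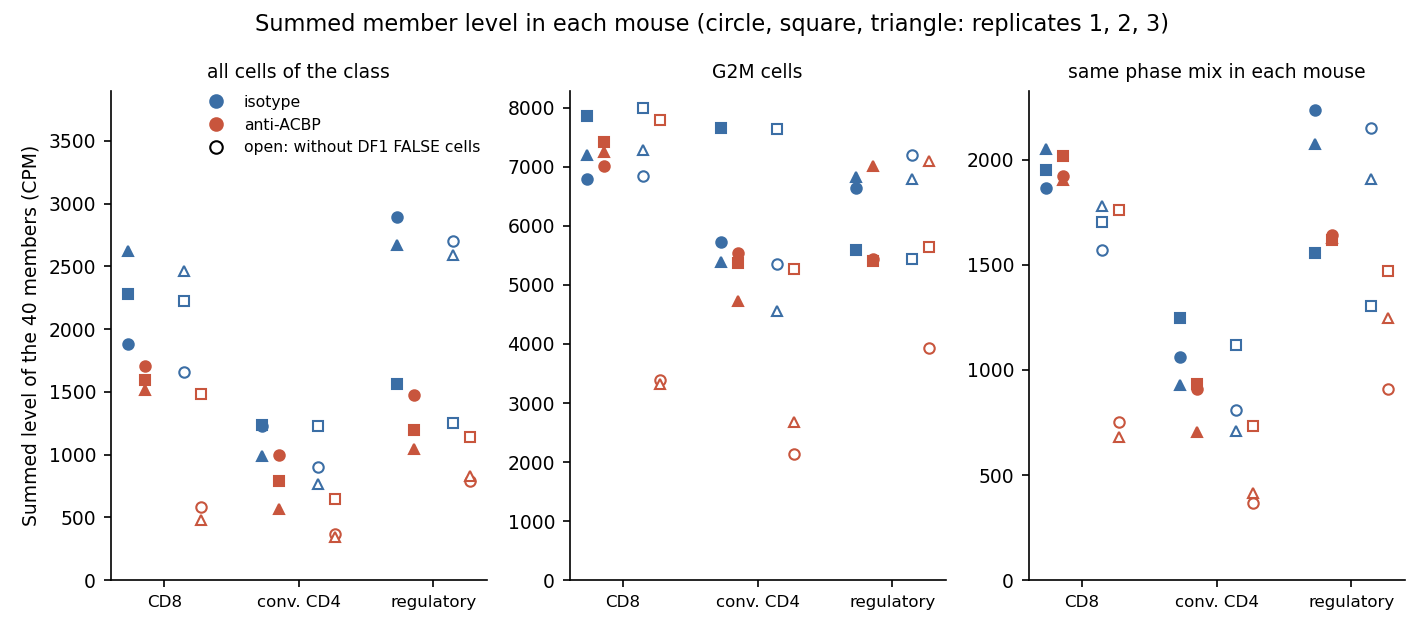
Summed level of the 40 members (CPM, linear axes from 0) in each mouse by class: in all cells, in G2M cells and at a common phase mix, with open symbols for values without DF1 FALSE cells. In all cells of the regulatory class the isotype mice lie between 1562 and 2889 CPM and the anti-ACBP mice between 1046 and 1472 CPM.

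In G1 cells 10 to 27 members had enough counts to test, those that stayed detectable there, and their counts do not stand for the list. Top2a passed in regulatory G1 cells, with 31.0, 29.9 and 31.4 CPM in isotype against 15.2, 19.1 and 24.2 CPM in anti-ACBP mice, -0.73 ± 0.17 (edgeR adjusted p = 0.0488; 1 of 10 tested, with 0.873% of 9507 genes called lower). Without isotype mouse 1 or 3 or anti-ACBP mouse 1 or 2 it no longer passed, nor with DESeq2, with library size only or with lineage set by each cell's own UMIs. In CD8 G1 cells 0 of 27 passed (4 lower and 2 higher at unadjusted p below 0.05, against 7.4% and 8.57% of all genes; DESeq2 0; 0.435% called lower), with Mki67 at -0.46 ± 0.17, Top2a at -0.42 ± 0.11, Cdk1 at -0.36 ± 0.25, Ccnb1 at -0.28 ± 0.42 and Aurkb at -0.13 ± 0.28. In conventional CD4 G1 cells 0 of 19 passed (2 lower and 0 higher at unadjusted p below 0.05, where 6.51% of all genes were lower; DESeq2 0; 0.172% called lower), with Mki67 at -0.60 ± 0.14, Top2a at -0.51 ± 0.14, Aurkb at -0.27 ± 0.44 and Cdk1 at -0.20 ± 0.32. In regulatory G1 cells Mki67 had -0.53 ± 0.16 and Cdk1 -0.36 ± 0.42. Over the members tested in G1 cells, leaving out DF1 FALSE cells gave medians of -0.45 (regulatory, 1 called), -0.27 (CD8, 0 called) and -0.22 (conventional CD4, 0 called).

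Cluster 4 cells, compared between groups, gave no call with edgeR or DESeq2 (9 lower and 0 higher at unadjusted p below 0.05, where 6.27% of all genes were lower; 0.592% of 10130 genes called lower), and the median change was -0.12, or -0.53 without cells with DF1 FALSE. Mki67 measured 779, 905 and 796 CPM in isotype against 761, 632 and 635 CPM in anti-ACBP mice, -0.32 ± 0.09 (edgeR adjusted p = 0.141). Cdk1 had -0.22 ± 0.09, Plk1 -0.21 ± 0.24, Top2a -0.21 ± 0.08, Ccnb1 -0.12 ± 0.11 and Aurkb -0.03 ± 0.08. Of the 40 changes, 30 were negative and 10 positive, the highest 0.21. Stmn1 was among the positive ones, with 1005, 1091 and 966 against 1092, 1205 and 1111 CPM, 0.13 ± 0.07 and no overlap.

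Cells were also counted. With every cell thinned to 2000 UMIs, at least 5 members were detected in 16.1% ± 5.14 of regulatory T cells of isotype and 5.96% ± 1.07 of anti-ACBP mice (SD, n = 3). The shares were 15.4% ± 2.88 and 9.67% ± 0.700 in CD8 and 5.73% ± 0.747 and 3.29% ± 1.03 in conventional CD4 T cells, and in none of the 3 did the groups overlap. Unthinned they were 25.8% and 11.9%, 22.3% and 16.7%, and 9.43% and 6.03%. In G1 cells 0.026% and 0.0152% reached 5 members, shares that the phase call itself keeps low and that are no independent background. Cells under 2000 UMIs, 719 in isotype and 311 in anti-ACBP libraries, were left out. Among G2M cells of all classes together 70.2% ± 3.71 reached 5 members in isotype and 62.6% ± 2.83 in anti-ACBP mice. By mouse these were 65.9%, 72.6% and 72.0% against 59.5%, 65.1% and 63.1%, without overlap, and with 10 members needed the groups overlapped. The mix of classes among these cells was not held equal. With cells thinned to 1000 UMIs, which left out no cell, the conventional CD4 groups overlapped (3.67% ± 0.742 against 2.21% ± 0.896).

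Other genes of the same processes were taken from lists that, like the members, were chosen with earlier results of these data known. In regulatory T cells 11 of 59 other mitotic genes fell and none rose, with a median of -0.87, where 1.22% of all genes were called lower. Incenp, the scaffold of the chromosomal passenger complex, went from 84.9 ± 11.6 to 52.6 ± 1.41 CPM (SD, n = 3; edgeR adjusted p = 0.0149), Kif15, a spindle motor, from 33.2 ± 4.27 to 19.9 ± 0.536, Mad2l1, the checkpoint protein Mad2, from 47.3 ± 10.9 to 24.3 ± 3.12, and Kif20b from 36.1 ± 5.27 to 21.5 ± 2.37. Of 30 S phase genes 6 fell, with a median of -0.55, among them Lig1, the ligase that joins Okazaki fragments (108 ± 2.64 to 70.3 ± 8.25 CPM, adjusted p = 0.0157), Chaf1a, Rrm1 and Mcm6. Subunits of the anaphase-promoting complex, which most cells keep at all times, had 1 of 15 lower (Anapc15) and a median of -0.06, and cohesin had 1 of 10 lower (Pds5a) and a median of -0.12. Of 18 regulators 2 fell, Rbl1 and E2f4, both parts of the DREAM complex, and 16 did not pass.

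These counts rest on single mice as those of the members do. For the other mitotic genes the count was 47 without isotype mouse 2, 3 without anti-ACBP mouse 1, 2 without isotype mouse 1 and 0 without isotype mouse 3, anti-ACBP mouse 2 or anti-ACBP mouse 3. For the S phase genes it was 19 without isotype mouse 2, 4 without anti-ACBP mouse 1, 3 without isotype mouse 1, 1 without isotype mouse 3 and 0 without anti-ACBP mouse 2 or 3. Leaving out 1 mouse gave 0 to 2 for the anaphase-promoting complex, 0 to 3 for cohesin and 0 to 4 for the regulators, the highest each time without isotype mouse 2. DESeq2 called 29 other mitotic and 11 S phase genes. With DF1 FALSE cells left out, 17 of 55 other mitotic genes and 11 S phase genes were called, with medians of -1.24 and -0.84, and 2, 2 and 4 genes of the other 3 lists.

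In CD8 T cells 2 of 59 other mitotic genes fell, Knstrn (26.7 ± 1.84 to 18.4 ± 1.12 CPM; SD, n = 3) and the condensin subunit Smc4 (204 ± 8.20 to 149 ± 13.3 CPM), both at an edgeR adjusted p of 0.0413, with a list median of -0.41, where 0.443% of all genes were called lower. The count was 29 without isotype mouse 1, 2 without isotype mouse 2 and 0 without any other single mouse, DESeq2 called 16, and with DF1 FALSE cells left out 1 was called and the median was -1.21. No gene of the S phase, anaphase-promoting complex, cohesin or regulator lists passed there with edgeR, where the medians were -0.28, -0.02, -0.18 and -0.11. At unadjusted p below 0.05, 17, 2, 5 and 4 were lower, where 8.34% of all genes were lower, and DESeq2 called 3, 0, 1 and 1. Without isotype mouse 1 edgeR called 13 S phase genes. In conventional CD4 T cells no gene of the 5 lists passed with edgeR, and the other mitotic genes had a median of -0.42. At unadjusted p below 0.05, 18 of those mitotic genes were lower and 1 higher, where 6.63% of all genes were lower. DESeq2 called 1 of them lower and 1 higher. Leaving out DF1 FALSE cells gave 3 called and a median of -0.89.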

How the data were processed

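Single-cell 5' expression libraries from 6 mice, 3 per group, were analysed. The deposited matrices hold raw UMI counts, and the authors' table of cells gives cluster, phase and the column DF1, per the file headers. The build mm10 and the tools Seurat and Cell Ranger 7.0.0 are named, per the submitters' processing notes. The CD8 class is clusters 0, 3 and 6, the conventional CD4 class 1 and 7 and the regulatory class 2, and cells of clusters 4, 5 and 8 were assigned by Cd4, Cd8a, Cd8b1 and Foxp3 UMIs.

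Counts were summed per mouse and class and compared in edgeR 4.0.16 (its quasi-likelihood test, TMM, filterByExpr, Benjamini-Hochberg over all genes tested, threshold 0.05, two-sided). DESeq2 1.42.0 was an alternative. Interactions kept the mouse as a block. P-values measure the spread between these mice. The SE was computed from the fold change and its F value. The scripts were tested on simulated data. Per-gene CPM in comparisons between groups divides by the UMIs of 31650 genes, those without T cell receptor segments, and summed levels and levels by phase or cluster divide by all UMIs. No doublet caller was run, and leaving out cells with 2 or more TRB chains (3.92% of cluster 4, 3.29% of other clusters) was an alternative. The common phase mix is the mean mix of the 6 mice in a class.

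The members, lists and roles were chosen with earlier results of these data known, and several members had been named by those results. Named with full statistics in each fit are members that pass plus Mki67, Top2a, Cdk1, Ccnb1, Plk1 and Aurkb, and up to 4 genes per other list. Members named for being nearest to 0, highest or next outside the threshold were chosen after their values were seen. The receptor libraries were used only to count TRB chains per cell. Reads shared by similar genes could be split by the counting, whose settings are not given in the sources used here.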

Additional observations from a re-analysis of the deposited data

Results flagged for a closer look

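Of the members and the other genes listed, Cks2, which helps Cdk1 bind its partners, had a change that differed between classes: the log2 fold change with anti-ACBP was lower in regulatory than in conventional CD4 T cells by -0.71 ± 0.12 (SE; edgeR interaction test with the mouse as a block, adjusted p = 0.0336). Cks2 was 1 of 59 other mitotic genes tested in this fit and the only one called, where 0.101% of 10872 genes were called lower. For regulatory minus CD8 T cells 0 of these 59 were called. Leaving out 1 mouse gave -0.83 to -0.57 for Cks2, with adjusted p from 0.0106 to 0.19. It no longer passed without anti-ACBP mouse 1 (0.126), 2 (0.101) or 3 (0.19). With DF1 FALSE cells left out the difference in Cks2 was -0.71 and the adjusted p 0.157.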

How the results depend on the processing

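Numbers of members called lower moved with several choices. DESeq2 called 17 in CD8, 7 in conventional CD4, 28 in regulatory and 0 in regulatory G1 cells. With no filter on low counts the numbers were 7, 5 and 19 in the classes, 4 in cluster 4, 2 for regulatory minus CD8, 10 for regulatory minus conventional CD4, 1, 2 and 1 in CD8, conventional CD4 and regulatory G2M cells, and 1 and 3 in conventional CD4 and regulatory G1 cells. With lineage set by each cell's own UMIs they were 7 in regulatory and 0 in regulatory G1 cells, with library size only 0 in regulatory G1 cells, and without cells of 2 or more TRB chains 1 in regulatory G2M cells. Without cells with DF1 FALSE, 0 were called in CD8 and 1 in conventional CD4 T cells. Leaving out 1 mouse gave 0 to 30 in CD8, 0 to 38 in regulatory, 0 to 3 in cluster 4, 0 to 11 for regulatory minus CD8, 0 to 14 for regulatory minus conventional CD4, and 0 to 1 in conventional CD4 G2M, regulatory G2M, CD8 G1 and regulatory G1 cells. The cause was not tested.

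Same-numbered mice are not paired by the labels, and their deviations correlated from -0.16 to 0.23 in regulatory, -0.09 to 0.25 in CD8 and -0.15 to 0.10 in conventional CD4 T cells. With the replicate number as a block, 21 members were called lower in regulatory T cells, 0 in CD8 T cells and 0 in regulatory G1 cells. No other number of members called differed. For the other lists this block gave 18 other mitotic, 10 S phase and 0 cohesin genes in regulatory T cells. In CD8 T cells it gave 1 other mitotic gene.

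Without DF1 FALSE cells some log2 differences changed sign. For regulatory minus CD8 the median became 0.0123, Aurkb 0.0665, Mki67 0.39, Plk1 0.30 and Top2a 0.33, and for regulatory minus conventional CD4 Plk1 became 0.63. For CD8 minus conventional CD4 the median became -0.30, Aurkb -0.11, Ccnb1 -0.0398, Cdk1 -0.45 and Mki67 -0.59. In CD8 G2M cells Aurkb became -0.75, Ccnb1 -0.43 and Plk1 -0.64. With lineage by own UMIs Mki67 became -0.0163 (CD8 minus conventional CD4) and Ccnb1 -0.0121 (CD8 G2M), and without cells of 2 or more TRB chains Plk1 became -0.00052 (CD8 G2M).

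Leaving out 1 mouse gave signs on both sides of 0 in these ranges. Aurkb ran from -0.25 to 0.0166 (CD8 G1), -0.0958 to 0.0348 (cluster 4), -0.44 to 0.0666 (conventional CD4 G1) and -0.33 to 0.0216 (regulatory G2M). Ccnb1 ran from -0.61 to 0.18 (CD8 G1) and -0.0523 to 0.14 (CD8 G2M). Cdk1 ran from -0.22 to 0.28 (CD8 minus conventional CD4), -0.51 to 0.20 (conventional CD4 G1) and -0.69 to 0.20 (regulatory G1). Plk1 ran from -0.13 to 0.33 (CD8 G2M), -0.38 to 0.0961 (cluster 4) and -0.66 to 0.22 (regulatory minus conventional CD4). For CD8 minus conventional CD4, Mki67 ran from -0.20 to 0.22, Top2a from -0.22 to 0.086 and the median from -0.0561 to 0.33. The median in conventional CD4 G1 cells ran from -0.41 to 0.12.

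The anti-ACBP to isotype ratio of cells with at least 5 members was 0.673 and 0.571 in CD8 T cells when 3 and 10 were needed, and 0.275 in regulatory T cells when 10 were needed. Without DF1 FALSE cells it was 0.316, 0.313 and 0.300 in CD8, conventional CD4 and regulatory T cells, and the ratio at a common phase mix 0.632, 0.573 and 0.675. Leaving out 1 mouse gave 0.575 to 0.694 for the CD8 share and 0.756 to 0.897 for the regulatory common mix. TTTGAA was in 10 members in the 250 bases before the start and TTTAAA in 6 within 50 bases of it. Windows around the start and the DF1 alternatives to these ratios were chosen after seeing the data. Depth limits the regulatory G2M values most, where 1 library has 21 cells.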
